A study of Mus musculus with 6 samples.

Results

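Transcripts of 7 cytokine genes, through which T cells act on other cells, were followed through 6 single-cell RNA sequencing libraries of mouse kidney T cells. The 7 genes, Il2, Il4, Il10, Il21, Ifng, Tnf and Il17a, were chosen by symbol from the 32285 features of the deposited count tables, and each symbol matched exactly 1 feature. The T cells came from wild-type male C57BL/6J mice aged 7 to 8 weeks, whose kidneys were either normal (control) or had undergone ischemia-reperfusion (IR) by clamping of both renal pedicles for 30 min. From each kind of kidney, cells positive for CD45 and the T cell receptor beta chain were sorted into CD4, CD8 and DN (CD4-negative, CD8-negative) T cells, which gave the groups Ctrl CD4, Ctrl CD8, Ctrl DN, IR CD4, IR CD8 and IR DN with 1 library each. All groups share the same strain, the same digestion of the kidney and the same sort. The number of mice per library and the hour at which the IR kidneys were taken are not given in the sources used here, apart from a creatinine measurement at 24 h. With 1 library per group no difference has a replicate check, no test was run, and the exact 95% intervals given below cover counting error only.

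T cell cytokines are secreted proteins whose messages are mostly silent at rest, are transcribed after the T cell receptor signals, and are degraded quickly by RNA-binding proteins. IFN-gamma (Ifng) activates macrophages and raises antigen presentation, and TNF (Tnf) activates endothelium and can kill cells. IL-2 (Il2) drives T cell growth and sustains regulatory T cells. IL-4 (Il4) acts on B cells and alternatively activated macrophages, IL-21 (Il21) helps B cells form antibodies, IL-10 (Il10) restrains inflammation, and IL-17A (Il17a) recruits neutrophils through epithelial cells. Invariant natural killer T cells, which can lie in a CD4 or a DN sort, are known for making IFN-gamma and IL-4 quickly, and in the kidney T cell cytokines are studied as mediators of ischemic injury.

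The 7 genes lie on 5 chromosomes of the GRCm38 (mm10) mouse genome in the GENCODE M21 annotation. Il2 (chr3:37120523-37125959, minus strand) and Il21 (chr3:37222759-37232636, minus strand) are neighbours on chromosome 3, where the Il2 locus overlaps Adad1 on the other strand and the Il21 locus overlaps the antisense gene Gm12534 on the other strand. Il4 is at chr11:53602982-53618669 (minus), Tnf at chr17:35199381-35202007 (minus) and Ifng at chr10:118441046-118445892 (plus), where the annotated transcript Gm49751 lies inside the Ifng locus on the same strand. Il10 (chr1:131019845-131024974) and Il17a (chr1:20730905-20734496) are both on the plus strand of chromosome 1. The methods name default settings for counting and do not name the handling of intron reads. Under default settings Cell Ranger assigns a read by strand, so partners on the other strand are kept apart. Reads of Gm49751 cannot be told apart from Ifng by strand. The 250 bases before the RefSeq transcription start (GRCm38.p6) are shown for the 4 members with the most UMIs, since these windows are where factors that receptor signalling brings into the nucleus meet the genes. They were read 5′ to 3′ on the strand of the gene from chr3:37125955-37126204 (Il2), chr11:53618666-53618915 (Il4, the upstream one of 2 starts in the table), chr10:118440796-118441045 (Ifng) and chr17:35202008-35202257 (Tnf). Capitals mark GGAAA, the core letters of the NFAT motif, on either strand (TTTCC when it is on the other strand), and TATAAA on the strand of the gene.
Il2: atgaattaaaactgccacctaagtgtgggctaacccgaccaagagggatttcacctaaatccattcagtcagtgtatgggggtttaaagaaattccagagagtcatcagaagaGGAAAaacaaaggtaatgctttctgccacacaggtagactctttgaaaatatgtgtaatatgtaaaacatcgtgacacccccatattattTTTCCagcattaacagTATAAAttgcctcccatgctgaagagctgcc
Il4: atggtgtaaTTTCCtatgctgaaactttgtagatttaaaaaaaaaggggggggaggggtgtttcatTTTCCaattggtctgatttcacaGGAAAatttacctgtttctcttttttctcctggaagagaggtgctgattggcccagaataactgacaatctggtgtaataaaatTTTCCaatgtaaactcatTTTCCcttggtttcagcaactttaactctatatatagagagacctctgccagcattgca
Ifng: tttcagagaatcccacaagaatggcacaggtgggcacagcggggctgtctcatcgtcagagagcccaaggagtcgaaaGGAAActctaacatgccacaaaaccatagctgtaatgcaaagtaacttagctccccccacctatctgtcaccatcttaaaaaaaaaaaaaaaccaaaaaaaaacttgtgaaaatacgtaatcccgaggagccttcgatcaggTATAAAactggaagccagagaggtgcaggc
Tnf: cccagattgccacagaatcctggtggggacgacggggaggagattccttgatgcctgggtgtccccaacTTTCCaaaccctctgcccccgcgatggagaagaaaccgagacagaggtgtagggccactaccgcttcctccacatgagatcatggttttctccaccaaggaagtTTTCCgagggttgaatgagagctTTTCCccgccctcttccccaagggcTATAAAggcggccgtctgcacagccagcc

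GGAAA was found 5 times before Il4, 3 times before Tnf, 2 times before Il2 and 1 time before Ifng, and 3 times in the Il21 window, whereas the Il17a window held none. TATAAA ended 25 bases before the Il2 start, 24 before Ifng, 23 before Tnf and 25 before Il17a, and the windows of Il4 and Il21 held none. Of 32851 RefSeq promoter windows of this length, 55.6% held GGAAA and 7.59% held TATAAA. These are matches of letters and not measured binding sites.

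The deposited tables held 54039 barcodes and 292762671 UMIs (unique molecular identifiers, each standing for 1 captured RNA molecule). After the filters 47765 T cells remained, with 8893 to 9295 cells per control library and 3975 to 10075 per IR library. Their median depth was 6635 to 8365 UMIs per cell in the control libraries and 1460 to 2359 in the IR libraries. Levels are CPM, the UMIs of a gene per 1000000 UMIs summed over a library, outside mitochondrial and ribosomal protein genes and Malat1, which took 21.0% to 26.6% of control UMIs and 30.5% to 45.2% of IR UMIs. The file headers name Cell Ranger 5.0.1 for the control and 6.0.1 for the IR libraries, so IR, software version and depth cannot be told apart in any comparison of IR with control. The sort held in the transcripts: Cd4 was at 210 and 146 CPM in the CD4 libraries and at most 0.466 CPM elsewhere, and Cd8a was at 867 and 400 CPM in the CD8 libraries and at most 0.247 CPM elsewhere. Between 134 and 189 barcodes of each library were also found in another library, 37 to 61 of them among the retained cells.

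Ifng and Tnf, the inflammatory pair, were measured in every library. For the control subsets, listed here and below as CD4, CD8 and DN, Ifng stood at 450 (95% interval 444–456), 340 (335–346) and 474 (469–480) CPM. The IR subsets had 656 (643–669), 390 (375–406) and 1037 (1007–1067) CPM. IR DN cells stood above every other library and Ctrl CD8 below every other one, and no interval overlapped another. Tnf stood at 146 (143–150), 132 (129–136) and 122 (119–125) CPM in the control subsets and at 79.6 (75.2–84.2), 54.5 (48.9–60.5) and 102 (92.6–112) CPM in the IR subsets. The 3 control levels of Tnf were all above the 3 IR levels, the reverse of the order for Ifng in CD4 and DN cells. In sums of this kind, fewer cells with a transcript and less of it per cell cannot be told apart, and the shares of cells are given further below.

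Il2, the growth factor, was at 47.7 (45.9–49.7) and 44.5 (42.6–46.5) CPM in Ctrl CD4 and CD8, where the intervals overlap, and at 21.3 (20.2–22.5) CPM in Ctrl DN. In IR cells it was at 20.1 (18.0–22.5) CPM in CD4, 11.8 (9.29–14.8) in CD8 and 17.3 (13.6–21.7) in DN. The level in Ctrl DN, IR CD4 and IR DN thus lay within overlapping intervals, with IR CD8 lowest. Il4, the type 2 cytokine, was at 94.2 (91.5–96.9) CPM in Ctrl CD4 and 116 (114–119) in Ctrl DN, and at 93.0 (88.2–97.9) CPM in IR CD4 and 140 (129–151) in IR DN. CD8 cells were apart: Ctrl CD8 had 7 Il4 UMIs (0.154 CPM, 0.0618–0.317), and IR CD8 had 0 in 6308 cells, which at 3 counts, the floor used for a count of 0 in a library, allows a level of up to 0.466 CPM and a share of up to 0.0476% of cells with a UMI. That share limits detection at this depth and not the share of cells that express the gene.

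The 3 remaining cytokines were below 10 CPM in every library. Il21, the B cell helper cytokine, was at 5.36 (4.74–6.04), 0.724 (0.499–1.02) and 5.07 (4.52–5.67) CPM in the control subsets, and at 0.777 (12 UMIs, 0.401–1.36), 0 and 1.15 (5 UMIs, 0.374–2.69) CPM in the IR subsets. Il10, the restraining cytokine, was at 4.04 (3.50–4.63), 1.78 (1.41–2.21) and 0.773 (0.568–1.03) CPM in the control subsets, and at 7.44 (6.15–8.94), 2.17 (1.19–3.65) and 2.30 (1.11–4.24) CPM in the IR subsets. CD4 cells held the highest level of Il10 in both conditions, and Il21 was found mainly in Ctrl CD4 and Ctrl DN. Il17a, the neutrophil-recruiting cytokine, had 23, 0 and 0 UMIs in the control subsets and 11, 14 and 3 in the IR subsets.

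**Figure D1:**
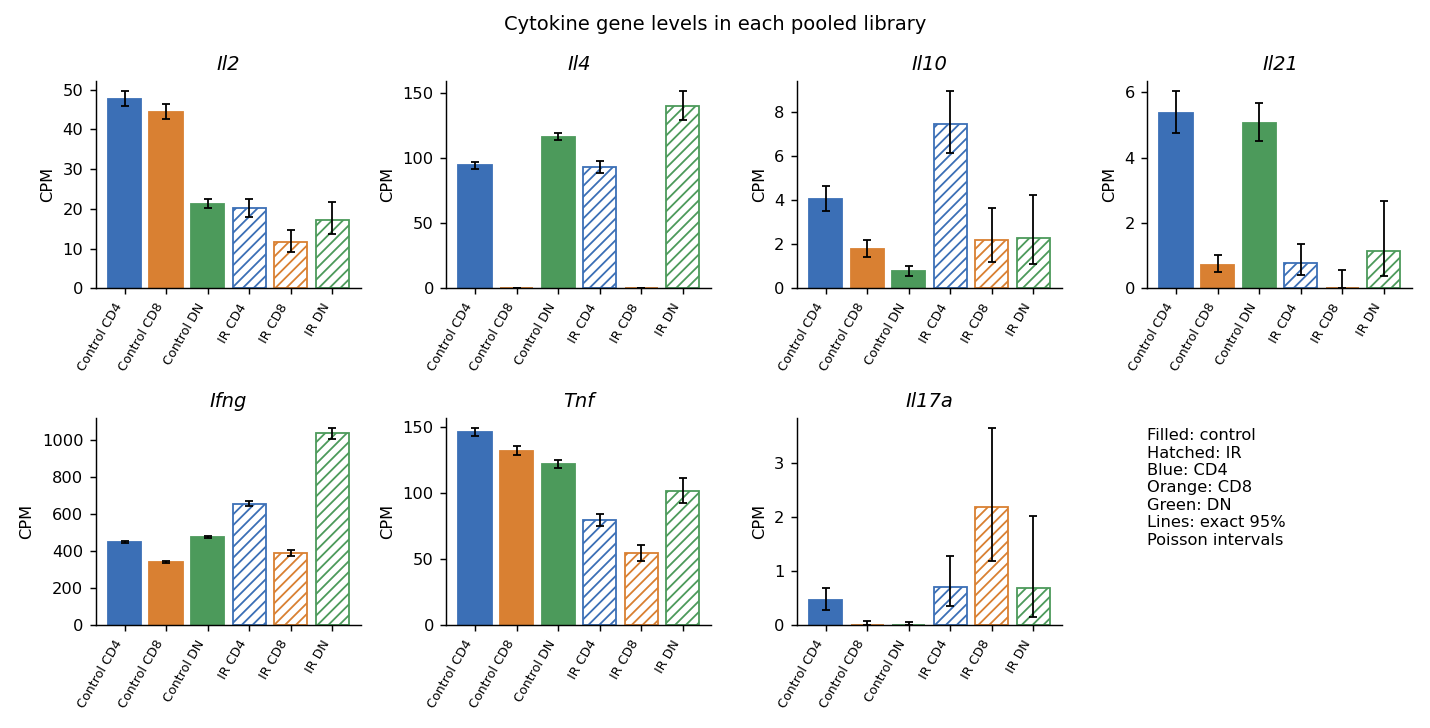
Level of each of the 7 cytokine genes in CPM (y axis, starting at 0, its own scale in each panel) in the 6 libraries (filled bars, control; hatched bars, IR), with exact 95% Poisson intervals for counting error. Ifng is highest in IR DN, the control bars of Tnf are all above the IR bars, and Il4 is near 0 in both CD8 libraries.

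The comparison of IR with control cells asks whether the cytokine messages differ after injury within each sorted subset. Genes with a level of at least 10 CPM on the higher side and a fold of at least 2 were called, a rule of size and not a test. In CD4 cells 1 of the 4 members at 10 CPM passed it, Il2, which was 2.37-fold lower in IR (2.11–2.68), while 22.8% of all 9036 genes at that level passed. Tnf was 1.84-fold lower (1.73–1.95), Ifng 1.46-fold higher (1.42–1.49) and Il4 the same within counting error (0.987-fold, 0.930–1.05). The median log2 ratio of these 4 members was -0.45, against -0.27 over all genes.

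In CD8 cells 2 of 3 members passed, with a background of 25.5% of 9122 genes. Il2 was 3.77-fold lower in IR CD8 (2.9996–4.81) and Tnf 2.43-fold lower (2.18–2.71), whereas Ifng stood at 1.15-fold of control (1.10–1.20). For Ifng in CD8 cells the direction turned when the mitochondrial, ribosomal and Malat1 counts were kept in the total (log2 ratio 0.20, or -0.22 with them kept). The median log2 ratio of the 3 members was -1.28, against -0.37 over all genes.

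In DN cells the member that passed was Ifng, 2.19-fold higher in IR (2.12–2.26), 1 of 4 members at 10 CPM, with a background of 19.6% of 9203 genes. With the removed counts kept in the total its log2 ratio went from 1.13 to 0.95, below the 2-fold limit. Il2 (0.811-fold, 0.634–1.02) and Tnf (1.20-fold lower, 1.09–1.32) were nearer to control in DN than in the other subsets, and Il4 was 1.20-fold higher (1.10–1.30). The median log2 ratio of the 4 members was 0.00, against -0.26 over all genes. Shares of 1 in 4 lie close to the background in CD4 and DN cells, so the values of the single genes carry this comparison and not their count.

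Below 10 CPM the ratios rest on few UMIs. Il21 was 6.91-fold lower in IR CD4 (3.89–13.5, 12 UMIs) and 4.40-fold lower in IR DN (1.86–13.6, 5 UMIs), and at least 1.56-fold lower in IR CD8, where 0 UMIs against 33 were set to the floor of 3. Il10 was 1.84-fold higher in IR CD4 (1.45–2.32) and 2.98-fold higher in IR DN (1.34–5.98, 10 UMIs). These values moved with the handling of cells: thinning to 1000 UMIs took the log2 ratio of Il10 in DN from 1.58 to 2.89 and in CD4 from 0.88 to 0.48, and that of Il21 in DN from -2.14 to -2.92. Leaving out the 10 cells with the most UMIs of the gene took Il10 in CD4 to 1.40 and Il21 in CD4 from -2.79 to -3.77, and leaving out cells with markers of other types took Il21 in CD4 to -2.12 and in DN to -1.61. Keeping the top 5% of barcodes took Il21 in CD4 to -2.14. The same numbers show that Il10 and Il21 lay on opposite sides of their control level in CD4 and in DN cells.

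**Figure D2:**
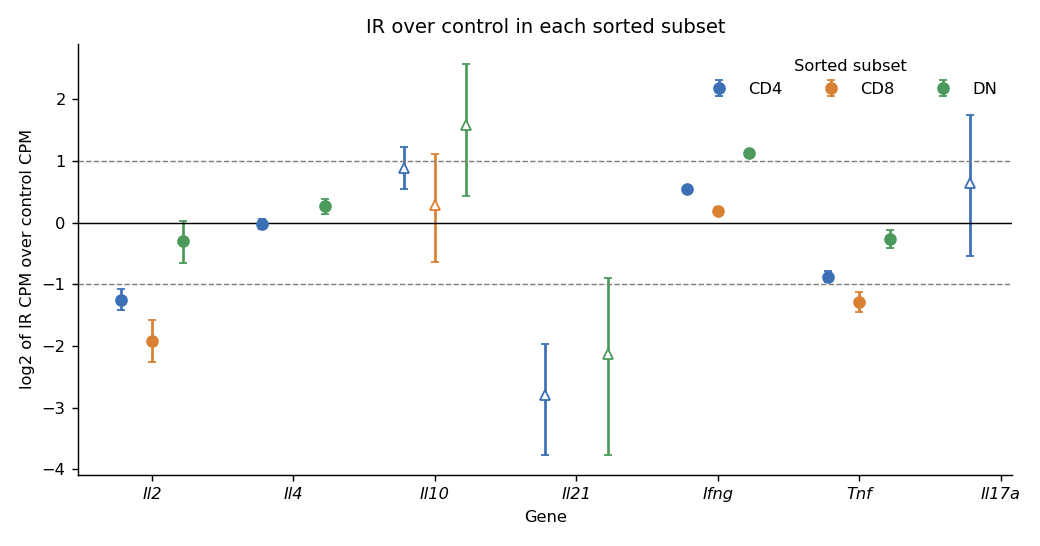
Log2 ratio of IR over control (y axis) for each cytokine gene (x axis) in CD4, CD8 and DN cells, with counting intervals and dashed lines at a 2-fold difference. Filled circles mark genes at 10 CPM or more, open triangles genes below it, and genes with at most 3 UMIs in either library are not drawn. Il2 lies beyond the lower line in CD4 and CD8, Tnf in CD8, and Ifng beyond the upper line in DN.

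The sorted subsets were then compared within each condition, to ask which cytokines separate DN from CD4 and CD8 cells. In control kidneys 1 of 4 members differed 2-fold between DN and CD4 cells, where 2.75% of 8860 genes did: Il2, 2.24-fold lower in DN (2.09–2.40). Between DN and CD8 cells 2 of 4 did, where 6.58% of 8970 genes did. These were Il4, 757-fold higher in DN (367–1884), and Il2, 2.09-fold lower (1.95–2.24). The Il2 value lay at the limit: its log2 ratio of -1.06 went to -0.97, inside 2-fold, with the removed counts kept in the total, and likewise with centring on intronic length. Between CD4 and CD8 cells 1 of 4 did, Il4 (613-fold higher in CD4, 297–1526), where 4.35% of 8915 genes did.

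After IR 0 of 4 members differed 2-fold between DN and CD4 cells, where 7.25% of 8895 genes did; Ifng was 1.58-fold higher in DN (1.53–1.64) and Il4 1.502-fold higher. Between IR DN and IR CD8 cells 2 of 4 did, where 11.7% of 8986 genes did. Ifng was 2.66-fold higher in DN (2.53–2.79) and Il4 was at least 299.99-fold higher, with the 0 UMIs of IR CD8 set to the floor of 3. Between IR CD4 and IR CD8 cells 1 of 4 did, Il4 again (at least 199.7-fold higher in CD4), where 7.55% of 8763 genes did. Ifng thus separated DN from CD8 cells by 1.39-fold in control and by 2.66-fold in IR kidneys, and Il2, lower in DN than in CD4 cells of control kidneys, was within 2-fold between them after IR.

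Markers of other cells moved with some of these groups, and their part in the cytokine levels was not tested. The summed level of 3 natural killer cell genes was 228 and 242 CPM in the DN libraries against 37.2 to 72.3 in the others. Klrb1c made up most of the DN sums, at 209 CPM in control and 233 in IR. Ncr1 was at 15.3 and 6.68 CPM in DN and at most 0.395 elsewhere. Eomes went the other way, at 4.11 and 2.54 CPM in DN against 60.2 and 28.7 in CD8 cells. The sum of the 2 invariant natural killer T genes Zbtb16 and Trav11 was 206 and 262 CPM in Ctrl CD4 and DN. It was 78.5 and 127 CPM in IR CD4 and DN, and at most 2.11 in CD8 cells. Zbtb16 made up nearly all of these sums. Trav11 was at 3.92 and 4.82 CPM in Ctrl CD4 and DN and at 2.46 and 6.22 in IR CD4 and DN. The 8 myeloid genes summed to 7.19 to 23.2 CPM in control and 19.6 to 58.8 CPM in IR libraries. Erythroid genes (4) summed to 1.16 to 1.28 CPM in control and 20.1 to 27.6 CPM in IR libraries, and 4 B cell genes to 1.91 to 11.8 and 8.16 to 24.99 CPM. Those of antigen presentation (4) were lower in IR, at 57.8 to 108 CPM in control and 18.8 to 77.4 CPM in IR libraries. The 3 endothelial genes summed to 45.5 to 130 CPM in control and 48.9 to 103 CPM in IR libraries, nearly all of it Pecam1. Mast cells and basophils, other makers of Il4, left 0.615 to 2.17 CPM over 5 marker genes, 3 or 4 of which were at 0 in each library. The sort was on the T cell receptor, and Cpa3, 1 of these marker genes, had 9 to 115 UMIs per library. Whether such cells added to the Il4 level was not tested.

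A UMI of a cytokine was found in a far larger share of control than of IR cells, but control cells were also deeper. Ifng was detected in 58.7%, 46.5% and 70.0% of the control cells and in 36.4%, 19.1% and 48.6% of the IR cells of these subsets. When every cell was thinned to 1000 UMIs, leaving out shallower cells, the shares became 27.1%, 23.1% and 29.6% in control and 31.2%, 22.5% and 45.3% in IR, so that IR DN alone stood well above the rest. The thinned sets held 8103 to 9020 control cells per library and 8776, 2669 and 2092 IR CD4, CD8 and DN cells.

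For Tnf the control libraries led: 11.1%, 10.5% and 9.62% of control cells and 6.42%, 5.06% and 8.37% of IR cells at 1000 UMIs, from 27.1% to 34.5% and 4.68% to 9.63% without thinning. Il2 was found in 4.47%, 4.26% and 2.11% of control and 1.82%, 0.974% and 1.58% of IR cells at 1000 UMIs (10.95% to 18.5% and 1.17% to 2.75% without thinning). The order of the 6 libraries by thinned share was that by CPM for both genes. Il4 was found in 6.06% of Ctrl CD4 and 8.09% of Ctrl DN cells, and in 7.62% of IR CD4 and 11.1% of IR DN cells at 1000 UMIs (17.0%, 27.7%, 10.1% and 11.7% without thinning). At least 1 of the 7 cytokines was seen in 41.3%, 33.5% and 42.4% of control cells and 39.9%, 26.5% and 55.4% of IR cells at that depth, and 2 or more in 7.49%, 4.46% and 6.75% of control and 7.47%, 2.17% and 10.5% of IR cells.

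Free RNA in droplets can give a UMI to a cell that does not make the message, so the barcodes with no T cell gene were examined as a reference. There were 85 in control (median 1207 UMIs) and 425 in IR libraries (median 1317 UMIs). Ifng was found in 17 of the 85 control reference barcodes (interval 12.1% to 30.1%) and in 8.71% (6.20–11.8) of the IR ones. Tnf was found in 11.8% (5.79–20.6) and 3.76% (2.17–6.04) of them, Il4 in 8.24% (3.38–16.2) and 1.41% (0.520–3.05), and Il2 in 2.35% (0.286–8.24) and 0.235% (0.00596–1.30). In control libraries the thinned shares of Ifng, Tnf and Il2 in T cells, and that of Il4 in CD4 and DN cells, lay within the interval of the reference barcodes, and at that depth they could not be told apart from it. Not all reference barcodes are shown to be other cells: 16 of the 85 and 46 of the 425 had 2 or more UMIs of non-T markers, and in control these had 45.8 CPM of Ifng (5.54–165) against 299 CPM (187–452) in the other 69. In IR each subset was set beside the reference barcodes of its own library. The Ifng shares of all 3 subsets lay above the reference interval, which reached 15.8%, 5.70% and 19.5% in IR CD4, CD8 and DN, and so did the Il4 shares of CD4 (2.68%) and DN cells (7.75%). The Tnf and Il2 shares lay within it in every IR library. With the 3 IR libraries pooled they lay above it in CD4 and DN cells, so that reading depends on the pooling. Il10 was found in 0.593%, 0.187% and 0.239% of IR CD4, CD8 and DN cells at 1000 UMIs (0.873%, 0.222% and 0.226% without thinning), within the interval of the pooled IR reference (0.706%, 0.146–2.05), so no share of Il10-making IR cells can be read. Il4 in Ctrl CD8 cells (0.0646% without thinning) was far below the share in Ctrl CD4 and DN cells of like depth.

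**Figure D3:**
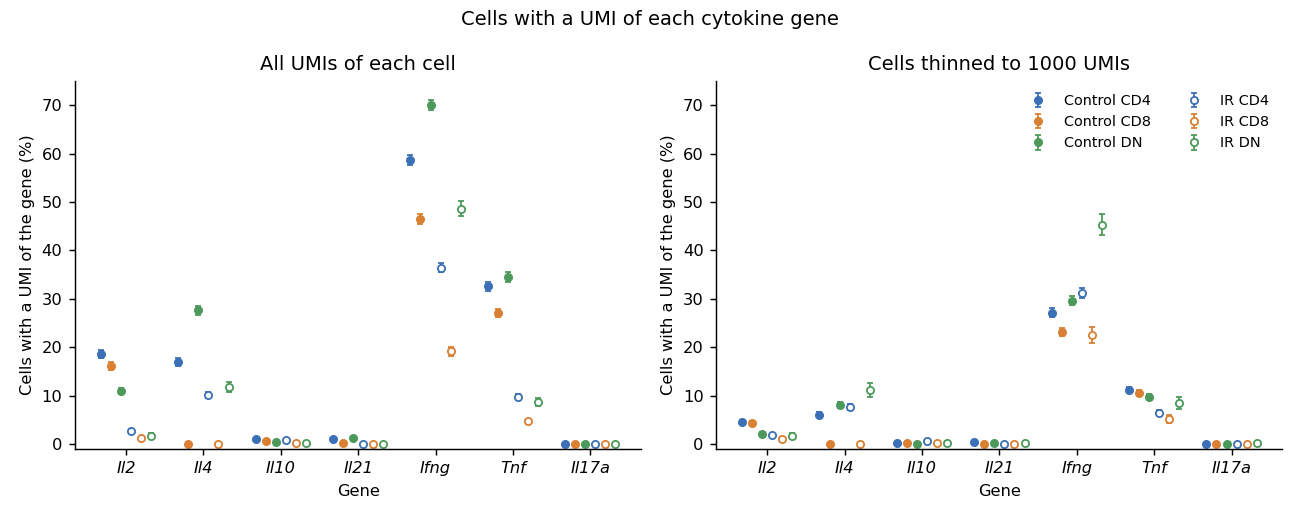
Share of cells with at least 1 UMI of each cytokine gene (y axis, percent) in the 6 libraries, for cells as deposited (left) and thinned to 1000 UMIs (right), with exact 95% binomial intervals. The excess of control over IR cells on the left is gone for Ifng on the right, where IR DN is highest at 45.3%, and remains for Tnf and Il2 in CD4 and CD8 cells.

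In Ctrl CD4 the UMIs of Il21, Il10 and in part Il4 were gathered in few cells, while those of Ifng, Tnf and Il2 were more widely spread. The most UMIs in any Ctrl CD4 cell were 390 for Ifng and 220 for Il4, and in any Ctrl DN cell 210 for Ifng and 101 for Il4. In the shallower IR libraries they were 33 for Ifng and 8 for Il4. The 10 cells with the most UMIs carried 15.9% of the Il4, 48.5% of the Il10 and 50.6% of the Il21 UMIs of Ctrl CD4, but 5.55% of its Ifng, 3.72% of its Tnf and 4.64% of its Il2 UMIs. For Il21 a single Ctrl CD4 cell held 69 UMIs, 25.5% of the library's total. In Ctrl CD8 only 11 cells had an Il21 UMI, and 10 of them held 97.0% of the 33 UMIs. In the IR libraries, which hold fewer UMIs, the order differed: the 10 cells carried 3.48% of the Il4 and 8.36% of the Il2 UMIs of IR CD4, and 6.60% and 22.7% of those of IR DN. The Il21 levels of the control libraries were thus set by a small number of cells, whereas Ifng UMIs were spread over 5414 Ctrl CD4 and 6229 Ctrl DN cells.

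Cells were also split by 1 UMI of genes that mark T cell states, each split being a description since a deeper cell is more often seen with any gene. Foxp3, the lineage factor of regulatory T cells, was seen in 342 Ctrl CD4 cells (3.71%). They had 48.1 CPM of Il10 against 2.09 in the other Ctrl CD4 cells, and carried 103 of the 204 Il10 UMIs. Their Il2 was at 8.87 CPM against 49.5 and their Ifng at 207 against 461 CPM. In IR CD4 the 306 cells with Foxp3 had 71.1 CPM of Il10 against 5.29 and 132 CPM of Ifng against 674. In both CD4 libraries, then, Ifng was lower and Il10 higher in the cells with Foxp3.

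Zbtb16, which encodes PLZF, the factor of innate-like T cells such as natural killer T cells, was seen in 32.0% of Ctrl CD4 and 58.1% of Ctrl DN cells, and in 8.81% of IR CD4 and 10.99% of IR DN cells. In Ctrl CD4, Il4 was at 213 CPM in cells with Zbtb16 against 24.3 without, and the former carried 83.8% of the Il4 UMIs. In Ctrl DN it was at 152 against 57.5 CPM, with 81.4% of the UMIs. In IR it was at 264 against 74.1 CPM in CD4, where cells with Zbtb16 carried 28.2% of the Il4 UMIs, and at 175 against 135 CPM in DN cells. At the lower depth of the IR cells a Zbtb16 UMI is missed more often, so these shares and contrasts are not compared between conditions. Zbtb16 itself was at 202 CPM in Ctrl CD4 against 76.0 in IR CD4 and at 258 CPM in Ctrl DN against 121 in IR DN, while the Il4 level of the whole library stayed within 1.20-fold of control. In Ctrl CD4 cells with Zbtb16, Il2 was lower (23.8 against 61.8 CPM).

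In control cells Il21 was higher with Zbtb16, with Pdcd1, the gene of the inhibitory receptor PD-1, and with Mki67, a gene of dividing cells. Of the 308 Il21 UMIs of Ctrl DN, 301 were in cells with Zbtb16. Cells with Pdcd1 were 8.50% of Ctrl DN and held 73.4% of its Il21 UMIs (37.9 against 1.496 CPM), and they were 9.89% of Ctrl CD4 and held 66.1% (29.7 against 2.07 CPM). With Mki67, Il21 was at 28.4 against 3.09 CPM in Ctrl CD4 and at 20.8 against 4.10 CPM in Ctrl DN. Few cells carried these values, since the 129 Il21 UMIs of Ctrl CD4 cells with Mki67 were in 17 cells and a single Ctrl CD4 cell held 69 of the library's 271 Il21 UMIs. Klrb1c, the gene of the natural killer receptor NK1.1, went the other way, with 0.568 CPM of Il21 in Ctrl DN cells that had it against 8.95 in those that had not. In Ctrl DN, Il4 was also lower in cells with Fcer1g, a signalling adaptor of natural killer and innate-like cells (47.9 against 141 CPM), as it was in IR DN (29.5 against 160 CPM).

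Ccr7, the chemokine receptor that guides naive and central memory T cells to lymph nodes, was at 32.9 CPM in Ctrl CD4 and 247 in IR CD4, and at 85.4 CPM in Ctrl CD8 and 699 in IR CD8. It was seen in 7.55% and 20.04% of those CD4 cells and in 16.8% and 37.2% of those CD8 cells. Such cells had little Ifng in either condition: 89.6 CPM in Ctrl CD8 and 91.1 in IR CD8, against 405 and 559 CPM in cells without Ccr7. The IR comparison was also read within both sets of cells, which are not strictly alike in the 2 conditions because a Ccr7 UMI is missed more often in the shallower IR cells. In cells with Ccr7, Ifng was at 1.01-fold of control in CD4 (0.860–1.18) and 1.02-fold in CD8 (0.870–1.18). Tnf and Il2 were lower in IR in these cells too. The log2 ratio of Tnf was -1.54 in CD4 and -1.66 in CD8 cells with Ccr7. That of Il2 was -1.16 in CD4 and -1.84 in CD8, where IR held 6 UMIs. Il4 in CD4 cells with Ccr7 was 2.08-fold higher in IR (1.17–3.78). In cells without it, Il2 in CD8 cells had a log2 ratio of -1.66 and Tnf of -1.03, and Ifng was 1.38-fold higher. In CD4 cells without Ccr7, Il2 had a log2 ratio of -1.14, Tnf of -0.73, and Ifng was 1.64-fold higher. Il4, level with control over all CD4 cells, was 1.105-fold higher there (1.04–1.17).

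**Figure D4:**
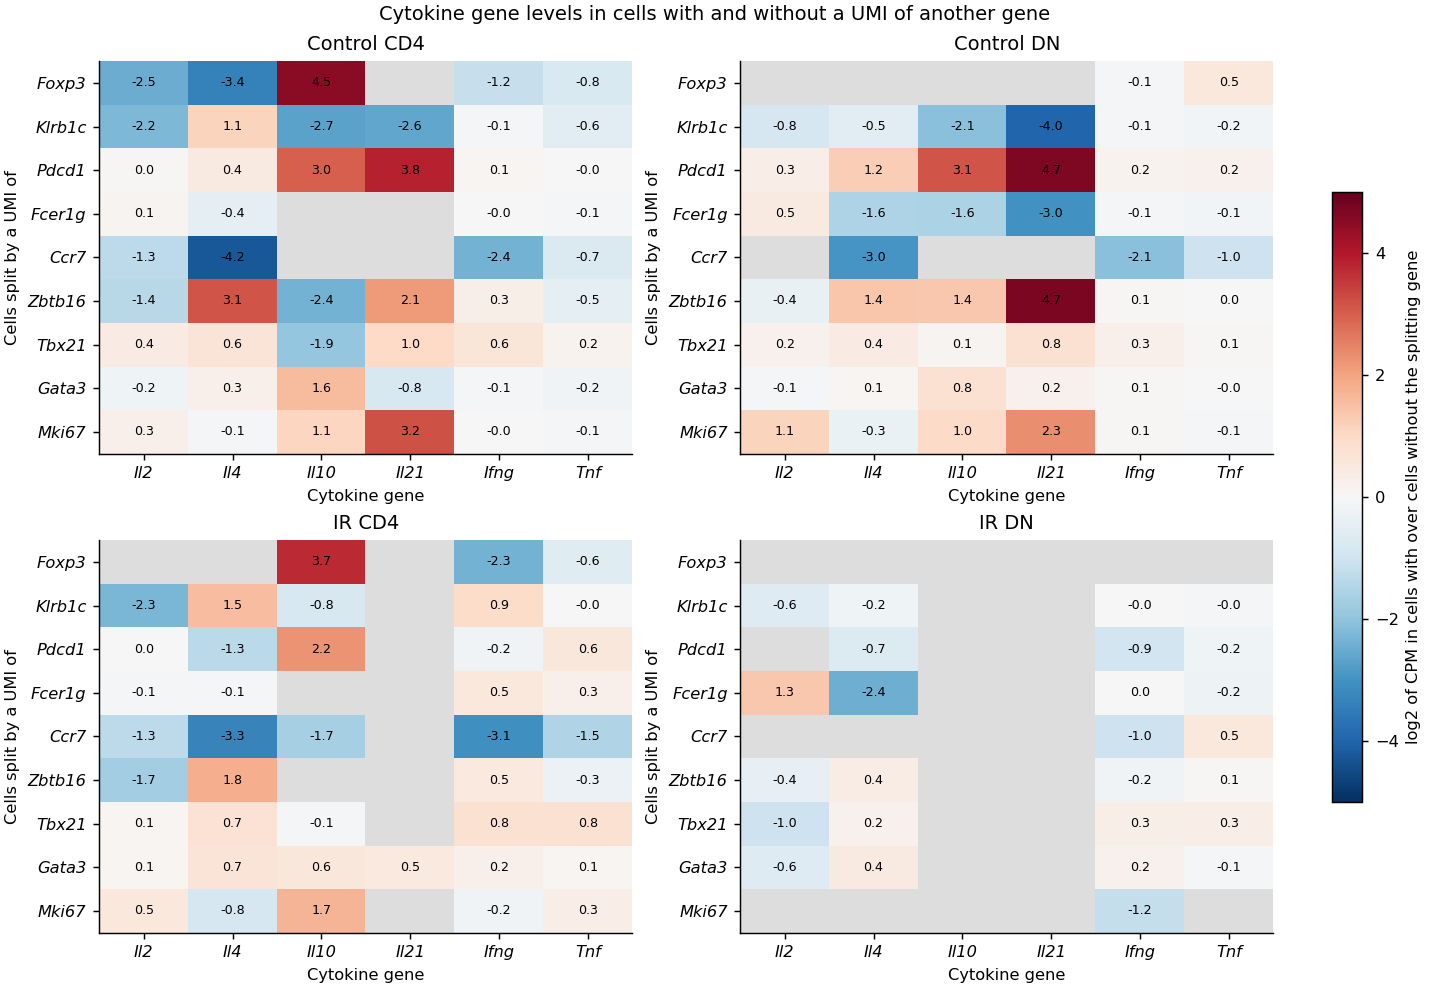
Log2 ratio of the CPM of each cytokine gene (columns) in cells with a UMI of a state gene (rows) over cells without it, in 4 libraries; grey marks at most 3 UMIs in either set. With Foxp3, Il10 is high and Ifng low in CD4 cells, with Zbtb16 Il4 is high, with Zbtb16, Pdcd1 or Mki67 Il21 is high in control cells, and with Ccr7 Ifng is low.

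Which cytokines shared a cell was counted for each pair and set beside the number that the product of the 2 shares gives within 10 equal groups of cells by depth, as a description of each library. Il2 and Il4 together lay below that product, with 162 Ctrl CD4 cells against 314, 186 Ctrl DN cells against 282 and 16 IR CD4 cells against 28.7. After thinning to 1000 UMIs the numbers were 7 against 23.0 in Ctrl CD4 and 14 against 15.2 in Ctrl DN, so that the gap was left in Ctrl CD4 and nearly gone in Ctrl DN. Il4 and Il21 together lay above it, with 35 Ctrl CD4 cells against 19.99 and 48 Ctrl DN cells against 31.8, and after thinning 7 against 1.88 and 11 against 1.92. Il10 and Il21 shared 6 Ctrl DN cells against 0.614.

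Ifng and Tnf, which effector T cells are known to make together, shared 1993 Ctrl CD4 cells against 1838 and 2253 Ctrl DN cells against 2199, close to the product, and 1475 Ctrl CD8 cells against 1276. In IR they shared 527 CD4 cells against 359, 105 CD8 cells against 60.9 and 176 DN cells against 171. Il4 and Ifng shared 643 IR CD4 cells against 379 (336 against 223 at 1000 UMIs) and 1109 Ctrl CD4 cells against 977. For Ifng with Tnf in CD4 cells the ratio to the product was thus 1.08 in control and 1.47 in IR (1.14 and 1.30 at 1000 UMIs), while in DN cells it was 1.02 and 1.03.

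**Figure D5:**
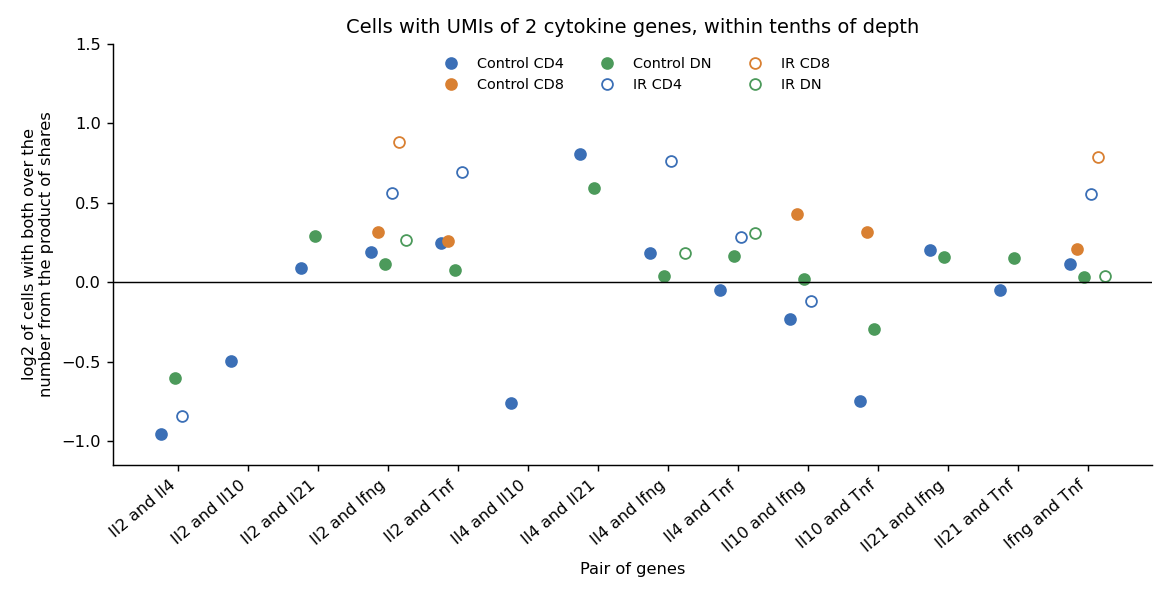
Log2 of the number of cells with UMIs of both cytokine genes over the number from the product of their shares within 10 depth groups, for each pair and library at full depth, where the product gave at least 10 cells. Il2 with Il4 lies below 0 and Il4 with Il21 above 0, while Ifng with Tnf is above 0 mainly in IR CD4 and IR CD8.

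Genes of the same cells were ranked for each member in the library with the most cells holding it, by the fold of CPM in holders over other cells among genes at 50 CPM or more in the holders, T cell receptor segments left out. The 2459 Il4 holders of Ctrl DN were led by Ccr9 (2.88-fold, seen in 585 of them), Ccl1 (2.67-fold, 70) and Ly6c1 (1.92-fold, 952). The 6229 Ifng holders of Ctrl DN were led by Ccl1 (6.50-fold) and Ccl4 (2.26-fold), both chemokine genes, and Ccl1 (4.42-fold) also led the 3065 Tnf holders. Few cells carried these folds, since Ccl1 was seen in 139 of the Ifng holders and 77 of the Tnf holders, and Ccl4 in 465 of the Ifng holders. Il2 holders of Ctrl CD4 were led by Cd7 (2.42-fold) and Ifngas1 (2.21-fold). The rarer members had sharper neighbours: the 103 Il21 holders of Ctrl DN were led by the checkpoint gene Lag3 (35.7-fold), Rgs16 (21.4-fold) and Serpina3f (21.1-fold), and the 88 Il10 holders of IR CD4 by Gzmb (12.9-fold), Foxp3 (7.05-fold) and Rgs16 (6.70-fold). Of these Il10 holders 10 had Gzmb, 23 Foxp3 and 11 Rgs16, and the fifth gene in rank, Tnfrsf4 (6.51-fold), was seen in 43. Of the Il21 holders 31 had Lag3, 42 Rgs16 and 55 Serpina3f. These are likenesses over cells of 1 library.

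Il17a was seen in 9 cells, and 5 of them held 47 of its 51 UMIs. A Ctrl CD4 cell with 19 Il17a UMIs also had 2 of Il17f, the closest relative of Il17a, and another Ctrl CD4 cell had 4 Il17a UMIs and none of Il17f. An IR CD4 cell with 7 Il17a UMIs had 6 of Il22 and another with 4 had 2, Il22 being a cytokine often made by the same lineage. An IR CD8 cell with 13 had none of Il17f, Il22, Rora or Maf. The 0 cells of Ctrl CD8 and Ctrl DN and the few cells elsewhere leave Il17a as a description of single cells.

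Other cytokine genes were read from a list of 21. In IR against control, 4 of 13 at 10 CPM were higher and 2 lower in CD4, 1 of 10 higher and 5 lower in CD8, and 2 of 13 higher and 3 lower in DN cells, with median log2 ratios of 0.16, -1.16 and -0.37. Over all genes, 7.70% were higher and 15.1% lower in CD4, 7.97% and 17.5% in CD8, and 8.35% and 11.3% in DN cells, a background for every list here, with medians of -0.27, -0.37 and -0.26. Csf2 (GM-CSF), which sustains macrophages and neutrophils, was at 17.7, 4.26 and 27.7 CPM in the control and 23.2, 2.64 and 75.8 CPM in the IR subsets, 2.74-fold higher in DN (2.43–3.09). Lta, the close relative of Tnf, was higher in IR CD4 (2.26-fold) and IR DN (2.88-fold), whereas Tnf was not higher in any subset. With the mitochondrial, ribosomal and Malat1 counts kept in the total the log2 ratio of Lta in CD4 went from 1.18 to 0.82, below 2-fold, and Mif (CD4 and CD8) and Tnfsf8 (CD4) also lost their calls as higher. Areg, a repair factor, was 4.76-fold higher in IR CD4. Tnfsf10 (TRAIL) was lower in all 3 subsets, from 112, 121 and 134 CPM to 30.0, 30.4 and 50.9 CPM. In CD4 cells Il22 had 2 UMIs in control and 68 in IR, a ratio of 111 with a counting interval of 29.6 to 937.

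Among 13 cytokine receptor genes, 1 of 12 was higher in IR CD4, 1 of 11 higher and 1 lower in IR CD8, and 0 of 11 passed in DN. The higher gene was Ifngr2, the signalling chain of the IFN-gamma receptor, at 8.95 CPM in Ctrl CD4 and 76.0 in IR CD4 (8.49-fold) and at 13.9 CPM in Ctrl CD8 and 119 in IR CD8 (8.61-fold), and in DN cells, below 10 CPM, at 1.17 and 5.07 CPM (4.34-fold, 2.56–7.09, 22 UMIs in IR), while Ifngr1, the binding chain, was at 919, 727 and 1315 CPM in control and 930, 537 and 1333 in IR. Of 24 transcription factors, 2 of 22 were higher and 3 lower in CD4, 2 of 23 higher and 8 lower in CD8, and 1 of 22 higher and 3 lower in DN, close to the background in CD4 and DN. Tbx21 (T-bet), which drives Ifng transcription, was lower in IR in all subsets, from 298 to 90.4, 231 to 66.3 and 370 to 148 CPM, also in the DN cells whose Ifng was higher. Stat4, which carries the IL-12 signal, was lower in all 3 as well (2.47-, 2.89- and 2.43-fold), and Junb, an AP-1 subunit, was higher in all 3 (4.18-, 3.27- and 4.08-fold).

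Of 8 genes for proteins that control cytokine messages after transcription, 2 were higher and 0 lower in CD4, 1 higher and 1 lower in CD8, and 2 higher and 0 lower in DN cells. Zfp36 (tristetraprolin), which binds AU-rich elements such as those of the Tnf message and speeds its decay, was higher in all 3 subsets, from 251 to 960, 217 to 740 and 228 to 781 CPM. Zc3h12a (Regnase-1), an RNase of cytokine messages, was higher in CD4 (2.17-fold) and DN (2.495-fold). With the removed counts kept in the total its log2 ratio in CD4 went from 1.11 to 0.76, below 2-fold, as did that of the transcription factor Batf in CD4 (from 1.22 to 0.87) and in CD8 cells (from 1.12 to 0.69).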

How the data were processed

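T cells sorted from mouse kidneys had been captured with 10x Genomics 3′ chemistry, and the deposited matrices hold raw UMI counts for each gene in each barcode, made by the authors with Cell Ranger on mm10 without normalization (5.0.1 in the control headers, 6.0.1 in the IR headers and the methods). Sample titles gave the groups. The members and gene lists were chosen with earlier results of these data known.

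Barcodes with at least 500 features, at most 20% mitochondrial UMIs and outside the top 5% of each library were kept, as in the study's filters, and had to hold a UMI of 1 of 7 T cell genes. No doublet caller was run. Counts were summed per library over 21104 features, without 104 mitochondrial, ribosomal and Malat1 features, to 4338888 to 60787932 UMIs, and scaled to CPM. In ratios, a count of 0 was set to 3 counts (0.0494 to 0.691 CPM). Intervals are exact Poisson for sums and Clopper-Pearson for shares. Thinning drew UMIs without replacement. Named genes were the members, their listed partners and, per member, the 5 genes most enriched in its holders, of which the leading ones are printed. GENCODE M21 matched 32158 of 32285 features (99.6%), and RefSeq promoters 6 of 7 members, without Il10. The counting rules were tested on simulated data. Alternatives included TMM scaling (edgeR 4.0.16, R 4.3.3), other filters, totals and minimum levels, thinning to 500 UMIs, and leaving out marker-bearing cells, shared barcodes or each gene's top 10 cells. After the data were seen, centring within 20 bins of intronic length and unthinned co-detection without marker-bearing cells were added. Results that need certain genes are left out.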

Additional observations from a re-analysis of the deposited data

How the results depend on the processing

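No paired analysis was possible because each group had 1 library and no test was run. Depth limits Il10, Il17a and Il21, which rest on few cells, and with 1 library per group the spread between mice is unknown. Of 135 recomputed counts of members past the 2-fold rule, 114 stayed within 1.5 times the value reported, and no log2 ratio past the rule changed sign. Keeping the mitochondrial, ribosomal and Malat1 counts in the total moved every IR ratio by -0.36 (CD4), -0.42 (CD8) and -0.18 (DN) on the log2 scale. It changed the IR count from 1 to 2 in CD4 (Il2 and Tnf) and from 1 to 0 in DN, and that of control DN against CD8 from 2 to 1 (Il4). Centring on intronic length, added after the data were seen, gave the same counts of 2, 0 and 1, with log2 ratios of -1.30 for Tnf in CD4 and 0.96 for Ifng in DN. The median log2 ratio of IR over control differed between bins of intronic length. For the bin of Tnf (988 intronic bases) it was 0.43, 0.15 and 0.28 in CD4, CD8 and DN. For the bin of Il4 (14461 intronic bases) it was -0.13, -0.31 and -0.18. The ratios of genes other than the members are given without such centring. A mean over cells gave 2 in CD4 (Il2 and Tnf). With no minimum level the counts were 2 (IR CD4), 3 (IR CD8), 3 (IR DN), 3 (control DN against CD4), 4 (control DN against CD8), 4 (control CD4 against CD8), 1 (IR DN against CD4), 4 (IR DN against CD8) and 3 (IR CD4 against CD8), and with a minimum of 5 CPM they were 2 in IR CD4, 2 in IR DN, 2 in control CD4 against CD8, 1 in IR DN against CD4 and 2 in IR CD4 against CD8, since Il10, Il17a or Il21 then entered. At a minimum of 5 CPM Il21 also entered in control DN against CD8 (5.07 CPM in DN, log2 ratio 2.81). Thinning gave 2 in IR CD4 against CD8 (Il2 and Il4). Over 12 alternatives the log2 ratio of IR over control ranged from -1.60 to -1.152 for Il2 in CD4, from -2.36 to -1.75 for Il2 in CD8, from -1.70 to -1.21 for Tnf in CD8, and from 0.95 to 1.18 for Ifng in DN. Il4 in CD4 lay between -0.37 and 0.29, with the opposite sign under 4 of them. Apart from the settings named, the cause of these shifts was not tested.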

Other observations

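Some partner genes differed in level between the subsets. Il2ra, the high-affinity chain of the IL-2 receptor, was at 45.8, 6.45 and 59.0 CPM in control CD4, CD8 and DN cells and at 58.6, 5.43 and 92.0 CPM in IR, so that DN cells, which had less Il2 than CD4 cells in control kidneys, had the most Il2ra in both conditions. Cd40lg, the helper ligand for B cells and macrophages, was at 370, 37.2 and 373 CPM in control and 244, 12.1 and 260 CPM in IR cells. Gata3, the factor of type 2 cytokine genes, was at 174, 97.9 and 197 CPM in control and 212, 107 and 298 CPM in IR cells, in CD8 cells beside Il4 levels of 0.154 CPM and 0. Il13, the type 2 cytokine next to Il4 on chromosome 11, stayed at or below 3.46 CPM in every library.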
